A study of Mus musculus with 18 samples.

Results

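The TRIM (tripartite motif) genes were followed in RNA-seq of splenic B cells from lupus-prone MRL/lpr mice. Members were the gene symbols made of Trim and a number, 65 of the 23420 symbols measured. A set of 15 members that textbook knowledge ties to interferon, either as interferon-induced genes or as ligases of antiviral sensing, was set apart as interferon-linked, and the remaining 50 were treated as the other members. The set was a fixed list of names and is not complete. Trim65, a ligase of the RNA sensor MDA5, was counted among the other members. Values were read counts scaled to library size on a log2 scale (log2 CPM), so 0 stands for 1 CPM and a difference of 1 for a doubling.

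The samples formed 6 groups of 3 libraries. Tlr997 mice were edited with CRISPR at the endogenous Tlr9 locus so that their receptor joins TLR9 to the intracellular TIR domain of TLR7, and Tlr9het mice (Tlr9+/-) carried a single intact Tlr9 allele as their control. Both genotypes were Tlr7-/- and female, and their cells were either left unstimulated or given the TLR9 agonist CpG (ODN 1826) at 10 µg/ml. Tlr779 mice carried the reciprocal chimera, TLR7 with the TLR9 TIR domain, were Tlr9-/- and male, and their cells were left unstimulated or given the TLR7 agonist CL097 at 5 µg/ml. All mice were MRL/lpr, homozygous for a defective Fas gene, and 5 to 7 weeks old; B cells were enriched with beads and harvested after 4 h. The treatment protocol names the control of the Tlr997 arm as deficient in both receptors, whereas its sample names read Tlr9het, and the sample names were used. The arms differ in sex, genotype and agonist, so their values are set side by side and no difference between arms was tested.

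TRIM proteins share an N-terminal RING domain that transfers ubiquitin, B-box domains and a coiled coil, followed by a variable C-terminal part that selects the target. Part of the family is induced by type I interferon and acts in antiviral defence: TRIM25 modifies the RNA sensor RIG-I, TRIM21 is a cytosolic receptor for antibody and the Ro52 autoantigen of lupus, and the TRIM5, TRIM12, TRIM30 and TRIM34 genes form a rapidly evolving cluster of restriction factors. Other members serve general cell biology, such as TRIM28, the corepressor of KRAB zinc finger proteins. TLR7 and TLR9 signal through MyD88 to NF-kB and interferon regulatory factors, and in B cells they drive activation and proliferation.

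Library medians of 4.82 to 4.84 log2 CPM over expressed genes were set by the authors' quantile normalization and do not measure quality. Correlations between replicates were 0.978 or more, except in the unstimulated Tlr997 group. There the lowest was 0.947 and involved replicate 3. In the 12 Tlr7-/- libraries Tlr7 RNA lay between 2.68 and 4.28 for Tlr9het and between 4.81 and 5.36 for Tlr997. It lay between 6.61 and 7.82 in the 6 Tlr779 libraries. Tlr9 RNA was at 6.93 to 7.47 in the Tlr9-/- Tlr779 libraries and at 7.02 to 8.08 elsewhere, so whole-gene values do not check the Tlr9 genotype. By the paper's methods the Tlr997 allele carries Tlr7 TIR sequence and the Tlr779 allele carries Tlr9 TIR sequence. Reads of a chimera can thus count toward the gene that gave its TIR domain. Whole-gene values therefore do not check the Tlr7 genotype either, and the part of such reads was not tested. Unstimulated Tlr997 libraries held Tlr9 at 7.02 to 7.06, against 7.28 to 7.48 in Tlr9het. With CpG the ranges were 7.18 to 7.56 and 7.93 to 8.08. These are RNA values over the whole gene. For protein, the paper reports equal TLR9 staining in B cells of male Tlr997 mice, homozygous for the allele, and Tlr9+/- mice. The part of these receptor values in the CpG responses was not tested. Summed B-cell markers (Cd79a, Cd79b, Ms4a1 and Pax5) stood at 12.1 to 12.6 in unstimulated libraries, and T-cell, macrophage and neutrophil lists reached at most 6.80, 8.63 and 6.35. In bulk samples fewer cells of a type and less RNA per cell cannot be told apart.

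Of the 65 members, 29 were over 0 log2 CPM in all 18 libraries, 22 were never over 0 and 11 stayed under -4 throughout. A gene was tested where at least 3 fitted libraries were over 0, which kept 36 members in the Tlr7-/- arm, 10 interferon-linked and 26 others. That is 55.4% of the members against 49.1% of all genes. The untested interferon-linked members were Trim6, Trim12a, Trim30e-ps1 and Trim38, all under 0 in every library, and Trim69, which ranged from -2.71 to 0.43. Divided by exon length, the most abundant members in unstimulated Tlr9het cells were Trim25 at 6.20 ± 0.12 (SD, n = 3) log2 CPM per kb and Trim28 at 6.19 ± 0.08, which did not differ beyond their spread. Trim12c followed at 5.27 ± 0.12, then Trim59 at 4.86 ± 0.15 and Trim44 at 4.79 ± 0.02, again within their spread of each other. At the low end of the tested members stood Trim30d at -2.24 ± 0.22, Trim58 at -3.22 ± 1.72 and Trim66 at -4.21 ± 0.62 log2 CPM per kb.

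Of the interferon-linked members, 8 lie within 316.6 kb on mouse chromosome 7 (GRCm38, 104218793 to 104535361), with Trim21 on the same chromosome at 102557921 to 102565486, Trim25 on chromosome 11, Trim26 on 17, Trim14 on 4 and Trim56 on 5. Promoters from RefSeq (GRCm38.p6, 250 bases before to 50 after the start) were at hand for 49 members, and were searched on both strands for GAAA, any 2 bases and GAAA again, the core of the interferon-stimulated response element found in front of many interferon-induced genes. The motif occurred in 6 of 13 interferon-linked genes (46.2%), in 1 of 36 other members (2.78%, Trim2) and in 3.99% of all 27025 genes with a promoter in the table. The sequences below show it in the 5 tested interferon-linked members that hold it, read 5′ to 3′ on the gene's strand, with the motif or overlapping motifs in capitals (TTTC, 2 bases and TTTC is the motif on the opposite strand). They lay at chr7:102565447-102565476 (minus strand) for Trim21, chr17:36836979-36837008 (plus) for Trim26, chr7:104353359-104353388 (minus) for Trim12c, chr7:104244457-104244486 (plus) for Trim34a and chr7:104507871-104507900 (minus) for Trim30d.
Trim21: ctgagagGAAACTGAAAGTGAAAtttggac
Trim26: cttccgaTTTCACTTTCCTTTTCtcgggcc
Trim12c: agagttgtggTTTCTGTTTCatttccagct
Trim34a: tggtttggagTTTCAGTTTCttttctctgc
Trim30d: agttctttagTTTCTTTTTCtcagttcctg
In Trim21 and Trim26 2 copies of the motif overlapped in 16 bases, and in the other 3 genes the motif stood once in 10 bases. Trim25, Trim30b, Trim34b and Trim56 held no match in this window, and Trim14 was not searched. A second motif, TTC, any 3 bases and GAA (the core of the gamma-activated site), was found in 1 of the 13 interferon-linked genes and 4 of the 36 others, against 9.55% of all genes. A match describes these letters only.

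The first comparison asked how CpG acted on the family when TLR9 was intact. In Tlr9het cells, 5 members were called higher and 17 lower with CpG, where a call needed an adjusted p under 0.05 and a difference over 0.5 on the log2 scale (limma across all genes, Benjamini-Hochberg). In this comparison 57.9% of all 11494 genes tested were called, 29.7% higher and 28.2% lower. The median difference was -0.43 over the 36 members and 0.04 over all genes. Of the 10 interferon-linked members 7 fell and 0 rose, with a median of -0.71, against a median of -0.31 for the 26 other members, of which 5 rose and 10 fell. Of these calls, Trim30b, Trim62 and Trim66 passed the filter on low values with every library of their lower group at or under 0 log2 CPM. Such a gene had to differ to be tested, and without these 3 the counts were 4 higher and 15 lower; 6.47% of all called genes were of this kind. In Tlr997 cells CpG raised 3 members and lowered 10 (9 without Trim62, which was of this kind there too), against 55.6% of all genes called, 29.6% higher and 26% lower. Of the interferon-linked members 1 fell there and 0 rose, with a median of -0.20, while the other members had a median of -0.24 and all genes one of 0.07.

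Trim25, the RIG-I ligase and the most abundant interferon-linked member, stood at 8.75, 8.83 and 8.60 log2 CPM in unstimulated Tlr9het cells and at 7.69, 7.61 and 7.71 with CpG. The groups were well apart, and the difference was -1.05 ± 0.06 (SE; adjusted p = 1.7e-09). In Tlr997 cells Trim25 was at 8.72, 8.68 and 8.71 unstimulated, within the control range, and at 8.17, 8.11 and 8.12 with CpG. All 3 stimulated Tlr997 libraries were above all 3 stimulated Tlr9het libraries, and the fall was -0.57 ± 0.06 (adjusted p = 1.1e-06), and of the 10 interferon-linked members Trim25 was the 1 called in Tlr997 cells with all libraries and the settings above. The difference of the responses was 0.49 ± 0.08 (adjusted p = 0.0092), just under the fold threshold.

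Trim26, a ligase reported to act on IRF3 and its upstream kinases, was at 7.06, 6.87 and 6.95 in unstimulated Tlr9het cells and at 6.44, 6.36 and 6.36 with CpG. In Tlr997 cells it was at 6.61, 6.65 and 6.72 unstimulated and at 6.59, 6.72 and 6.61 with CpG. The Tlr9het groups did not overlap, the Tlr997 groups overlapped, and the unstimulated Tlr997 libraries already lay below the unstimulated Tlr9het libraries. CpG changed Trim26 by -0.57 ± 0.06 in Tlr9het cells (adjusted p = 2.3e-06) and the value in Tlr997 cells was -0.02 ± 0.06 (adjusted p = 0.80), so the responses differed by 0.55 ± 0.09 (adjusted p = 0.0074). That difference is made of -0.30 between genotypes without agonist (adjusted p = 0.30) and 0.25 with CpG (adjusted p = 0.035), neither of which was called.

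Trim12c, a mouse relative of the retroviral restriction factor TRIM5, was at 7.31, 7.13 and 7.08 in unstimulated Tlr9het cells and at 6.39, 6.48 and 6.39 with CpG. Tlr997 cells held 6.98, 6.98 and 7.27 unstimulated and 6.86, 6.91 and 6.87 with CpG. Stimulated Tlr997 libraries were thus all above stimulated Tlr9het libraries, while the unstimulated groups overlapped. The response was -0.75 ± 0.08 in Tlr9het cells (adjusted p = 1.6e-06) and -0.20 ± 0.08 in Tlr997 cells (adjusted p = 0.039, under the fold threshold), and the responses differed by 0.55 ± 0.11 (adjusted p = 0.029). This call was lost in 9 of 12 fits that left out 1 library, in which the difference ran from 0.49 to 0.65 and the adjusted p from 0.0031 to 0.081. Of Trim12c's 75-base stretches 16.5% also occur in other genes, mostly in Trim5, so reads can have been shared between them.

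Trim21, the antibody receptor, was at 5.77, 5.68 and 5.25 in unstimulated Tlr9het cells and at 4.92, 4.84 and 4.92 with CpG, a fall of -0.68 ± 0.12 (adjusted p = 0.00016). In Tlr997 cells its libraries read 5.39, 5.37 and 5.23 before and 5.20, 5.21 and 5.02 after CpG, a difference of -0.19 ± 0.12 (adjusted p = 0.17). The stimulated Tlr997 libraries all lay above the stimulated Tlr9het libraries. Trim34b, of the cluster, went from 4.15, 4.01 and 3.70 to 3.05, 2.74 and 3.06 in Tlr9het cells (a fall by 1.00 ± 0.14, adjusted p = 2.8e-05) and from 3.67, 3.75 and 3.92 to 3.42, 3.44 and 3.52 in Tlr997 cells (-0.32 ± 0.14, adjusted p = 0.058). Its neighbour Trim34a fell by 0.84 ± 0.19 in Tlr9het cells (adjusted p = 0.0014) and had a value of -0.44 ± 0.19 in Tlr997 cells (adjusted p = 0.055). That value was called on leaving out unstimulated Tlr997 replicate 1 (-0.63, adjusted p = 0.0080) or stimulated Tlr997 replicate 3 (-0.57, adjusted p = 0.028). These 2 genes share 786 stretches of 75 bases with each other, 31.2% of those of Trim34a and 44.8% of those of Trim34b, and their values are uncertain to that extent.

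Trim14, a mitochondrial adaptor of RNA sensing without a RING domain, and Trim56, a ligase linked to DNA sensing through cGAS and STING, moved less. Trim14 read 5.32, 5.20 and 4.88 in unstimulated and 4.67, 4.76 and 4.71 in stimulated Tlr9het libraries, and Trim56 read 6.39, 6.17 and 5.82 against 5.74, 5.67 and 5.67. Neither gene's groups overlapped, and the values were -0.41 ± 0.10 (adjusted p = 0.0026) and -0.43 ± 0.12 (adjusted p = 0.0056), both under the fold threshold. In Tlr997 cells the values were -0.19 ± 0.10 for Trim14 and -0.06 ± 0.12 for Trim56. Exons of Trim14 overlap those of Nans on the opposite strand.

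The weakly expressed cluster genes behaved less evenly. Trim30b went from 2.43, 2.71 and 1.55 to -0.58, -4.80 and -0.43 in Tlr9het cells. Stimulated replicate 2 sat at the level of genes without reads, and the fitted value of -4.16 ± 0.91 depended on it, being -2.73 in the fit that left it out. In Tlr997 cells Trim30b went from 1.28, 2.17 and 1.33 to -0.68, 0.58 and 0.31 (-1.52 ± 0.91, adjusted p = 0.15). With a pseudocount of 1 CPM this was called (-0.96, adjusted p = 0.010), as it was with only the groups compared in the fit (-1.52, adjusted p = 0.019). Trim30d was the 1 interferon-linked member with a positive value for CpG in either genotype, 0.75 ± 0.43 (adjusted p = 0.13) in Tlr9het and 0.85 ± 0.43 (adjusted p = 0.09) in Tlr997 cells. The latter was called without the variance trend (0.85, adjusted p = 0.034) and without stimulated Tlr997 replicate 1 (1.23, adjusted p = 0.024), in a gene with no unstimulated library over 0.

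**Figure D1:**
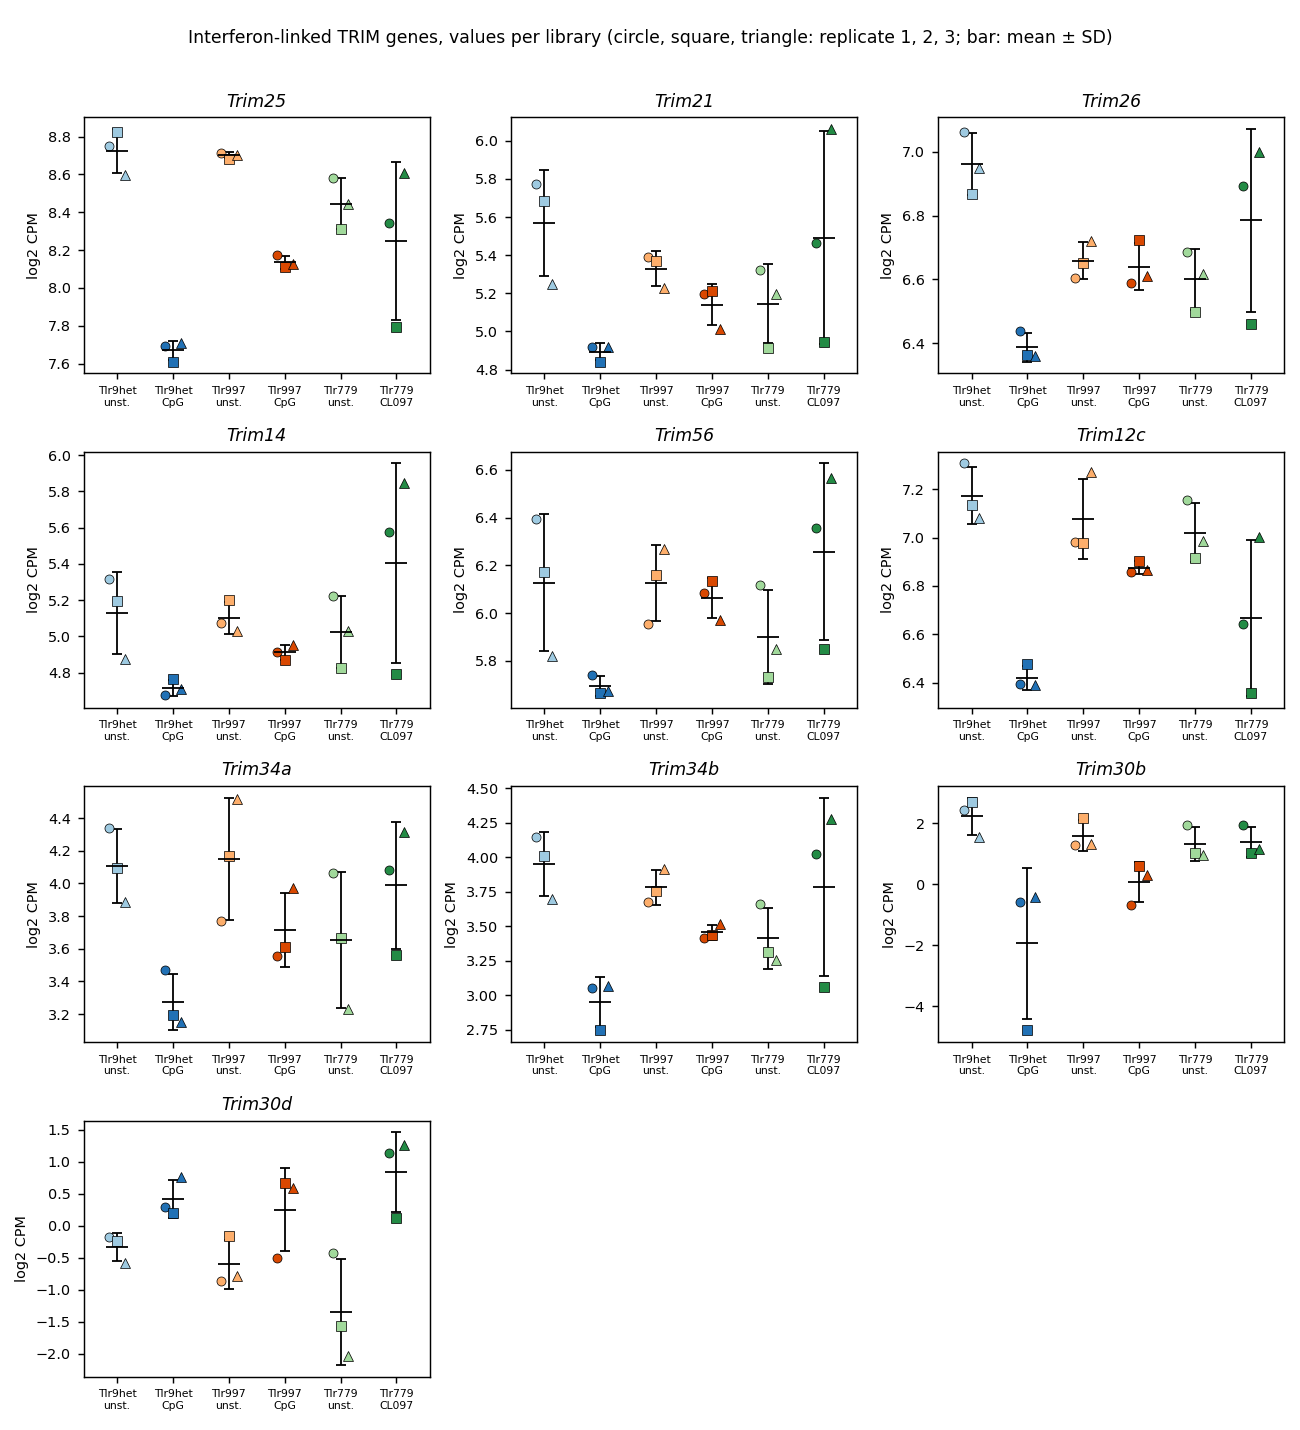
Log2 CPM (y axis, scaled per gene) of the 10 tested interferon-linked TRIM genes in the 6 groups (x axis), with a circle, square and triangle for replicates 1, 2 and 3 and a bar for the mean with its SD. In 8 of the 10 genes all stimulated Tlr997 libraries lie above all stimulated Tlr9het libraries, and in all 10 the CL097 library of replicate 2 is the lowest of its group.

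Between genotypes, 0 members were called without agonist in limma, where 0.0174% of genes were called and 2 of the 36 members had an unadjusted p under 0.05, against 10.8% of all genes (Trim26 and Trim17; of the latter's 75-base stretches 17.7% occur in Hist3h2a). The median difference of the interferon-linked members was -0.13, that of the other members -0.02 and that of all genes -0.01. With CpG, 0 members were called as well, against 2.72% of all genes (1.25% higher and 1.47% lower). An unadjusted p under 0.05 was reached by 12 of the 36, 7 of them interferon-linked, and by 19% of all genes. An adjusted p under 0.05 without the fold threshold was reached by 5 of the 36 members and by 5.92% of all genes. The 5 were all higher in Tlr997: Trim25 (0.47 ± 0.06), Trim12c (0.46 ± 0.08) and Trim26 (0.25 ± 0.06) among the interferon-linked, and Trim24 (0.30 ± 0.06) and Trim8 (0.33 ± 0.09) among the others. Tlr997 cells held more RNA of 9 of the 10 interferon-linked members with CpG, with a median difference of 0.41, against 0.05 for the other members and 0.0005 for all genes, of which 50.2% were higher. For 8 of the 10, all Tlr997 libraries were above all Tlr9het libraries, as for 6 of the 26 other members and 14.6% of all genes. Fitted on the 6 stimulated libraries alone, Trim34b was called (0.50, adjusted p = 0.048).

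The test of the difference of CpG responses called Trim12c and Trim26, both higher (less repressed) in Tlr997 cells, and 0 members lower, where 1.54% of all genes were called, 0.687% higher and 0.853% lower. All 10 interferon-linked members had a positive value, with a median of 0.49, against 17 of 26 and 0.05 for the other members and 51.7% and 0.01 for all genes. Without agonist 9 of the 10 were lower in Tlr997 than in Tlr9het cells, which enters this difference. Of the other members 13 of 26 were lower there, and 47.5% of all genes were higher. The 10 members share libraries, so their values are not separate observations. The test of the difference shares its libraries with the comparisons above. Its number of calls depended on single libraries, while the Trim26 call held in all 12 fits that left out 1 library (0.50 to 0.60). Unstimulated Tlr9het replicate 3 was the lowest of its group for 9 of the 10 interferon-linked members (7 of 26 others). Without that library 4 members were called, with Trim21 at 0.65 (adjusted p = 0.019) and Trim25 at 0.55 (adjusted p = 0.0023).

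Sums of the B-cell and plasmacytoid dendritic cell lists were higher in stimulated Tlr997 than in stimulated Tlr9het libraries, while their single genes went both ways. The T-cell, macrophage, neutrophil, NK-cell, plasma-cell and erythroid lists overlapped between the stimulated genotypes, with 0 of their genes called. Summed B-cell markers were at 10.1 to 10.2 in stimulated Tlr9het libraries and at 10.9 to 11.2 in stimulated Tlr997 libraries. Of the 4, Ms4a1 (1.26 ± 0.07) and Cd79b (1.04 ± 0.16) were called higher in Tlr997. The other 2, Cd79a (0.04 ± 0.10) and Pax5 (-0.13 ± 0.07), were not called. The plasmacytoid dendritic cell list read 7.47 to 7.53 against 7.99 to 8.06, with Tcf4 (0.62 ± 0.06) called and Klk1 too low to test. Siglech, its defining marker, was at -1.02 ± 0.37 (adjusted p = 0.15). Bst2 (0.42 ± 0.18) and Ccr9 (-0.09 ± 0.31) were not called. The part of these lists in the TRIM differences was not tested.

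**Figure D2:**
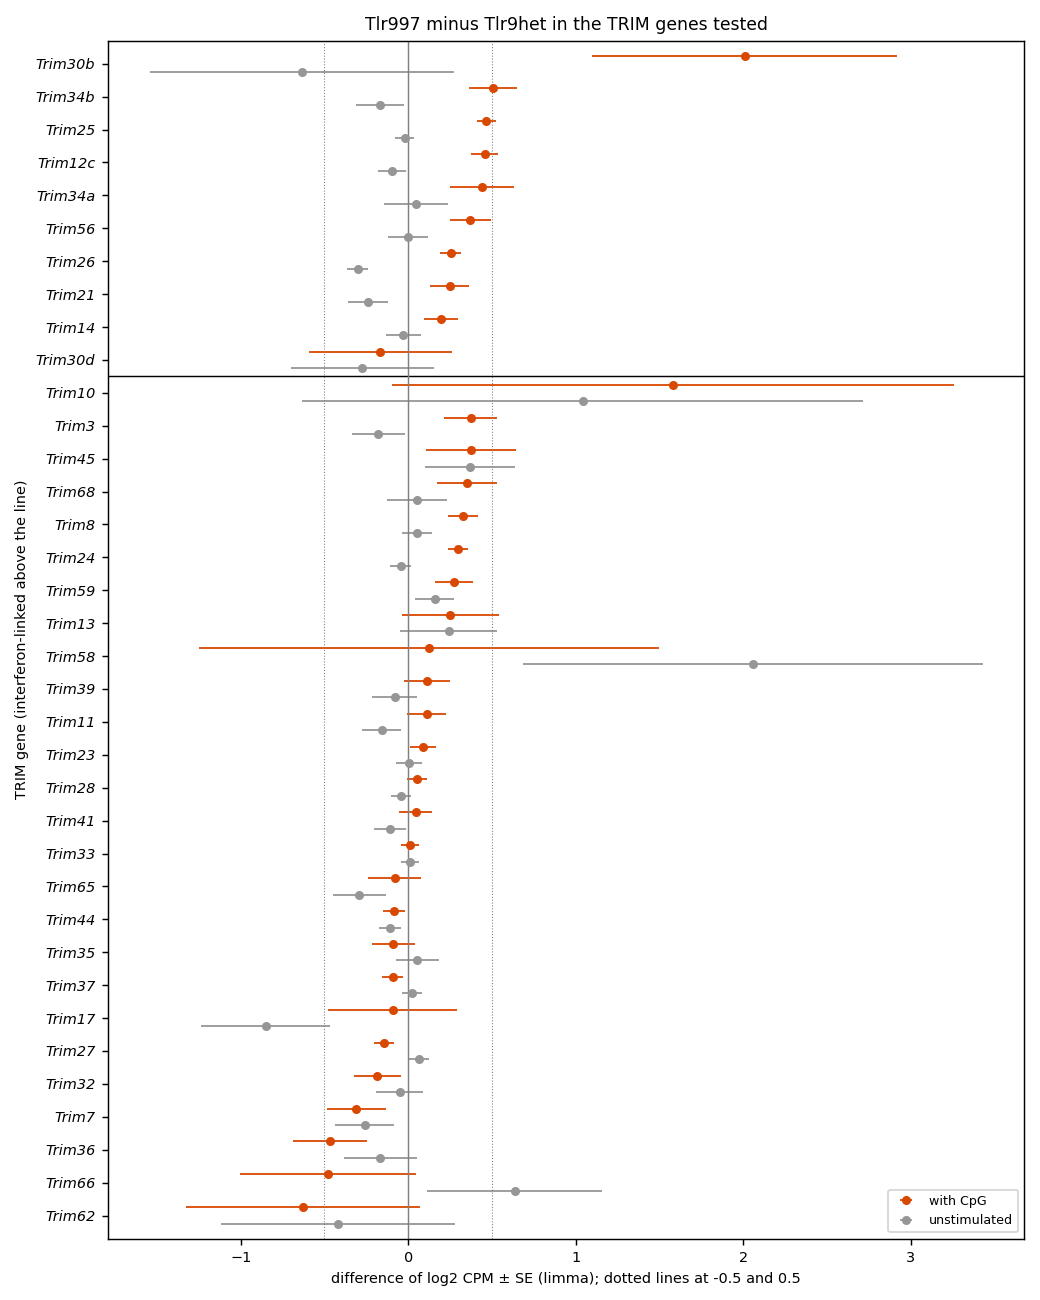
Difference of log2 CPM, Tlr997 minus Tlr9het, with its SE (x axis) for each tested TRIM gene (y axis), with CpG in orange and unstimulated in grey; interferon-linked genes stand above the horizontal line, and dotted lines mark 0.5 in either direction. With CpG 9 of the 10 interferon-linked genes lie to the right of 0 with a median of 0.41, while the other members centre on 0.05.

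In Tlr779 cells CL097 raised 3 members and lowered 10 of the 35 tested (2 and 9 without Trim30d and Trim62, whose lower groups held no library over 0), against 46.3% of all genes called, 22.7% higher and 23.6% lower. The interferon-linked members had a median of 0.34, with 8 of 10 values positive (49% of all genes) and 0 called apart from Trim30d, while the other 25 had a median of -0.23 with 2 called higher and 10 lower. The median of all genes was -0.02. Trim30d stood at -0.43, -1.57 and -2.04 unstimulated and at 1.14, 0.12 and 1.25 with CL097, a difference of 2.18 ± 0.55. It passed the filter through the 3 CL097 libraries alone, so its test carries no weight; without the filter its adjusted p was 0.065. Of Trim30d's 75-base stretches 6.45% occur in another gene.

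The CL097 libraries of the interferon-linked members were uneven in a shared way. Replicate 2 was the lowest of the 3 for all 10 of these genes and replicate 3 the highest for 9, whereas among the other members replicate 2 was lowest for 5 of 26. Unstimulated Tlr779 replicate 1 was in turn the highest of its group for all 10, against 9 of 26 others. Trim21 read 5.32, 4.92 and 5.20 unstimulated and 5.47, 4.95 and 6.06 with CL097, and Trim56 read 6.12, 5.73 and 5.85 against 6.36, 5.85 and 6.57. Set against the unstimulated library of the same number, 10 of 10 interferon-linked genes were higher with CL097 in replicate 3, 7 in replicate 1 and 3 in replicate 2. The differences with all libraries were 0.34 ± 0.26 for Trim21 (adjusted p = 0.27) and 0.36 ± 0.18 for Trim56 (adjusted p = 0.13). Without CL097 replicate 2, Trim14 (0.69), Trim21 (0.62), Trim34b (0.74) and Trim56 (0.56) were called higher, with adjusted p-values of 0.0058, 0.030, 0.011 and 0.0091. Trim25 was at 8.58, 8.31 and 8.44 before and 8.34, 7.79 and 8.61 after CL097 (-0.20 ± 0.19, adjusted p = 0.39), with groups that overlapped. Some lists followed the same order over the CL097 replicates: the macrophage list read 6.65, 6.08 and 7.29, the plasmacytoid dendritic cell list 8.11, 7.60 and 8.43, the neutrophil list 3.02, 1.84 and 3.41, and Usp18, an interferon-induced gene, 6.82, 5.67 and 7.50. Others did not: replicate 2 was the highest for the T-cell list (5.96, 6.62 and 5.69) and the erythroid list (5.58, 8.31 and 6.50), and the B-cell list was lowest in replicate 1 (10.7) and highest in replicate 3 (11.2). The plasma-cell and NK-cell lists were lowest in replicate 2 and highest in replicate 1. These list values are sums, and single genes of the lists are not given for the CL097 replicates. The part of the lists and of Usp18 in the TRIM values was not tested.

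**Figure D3:**
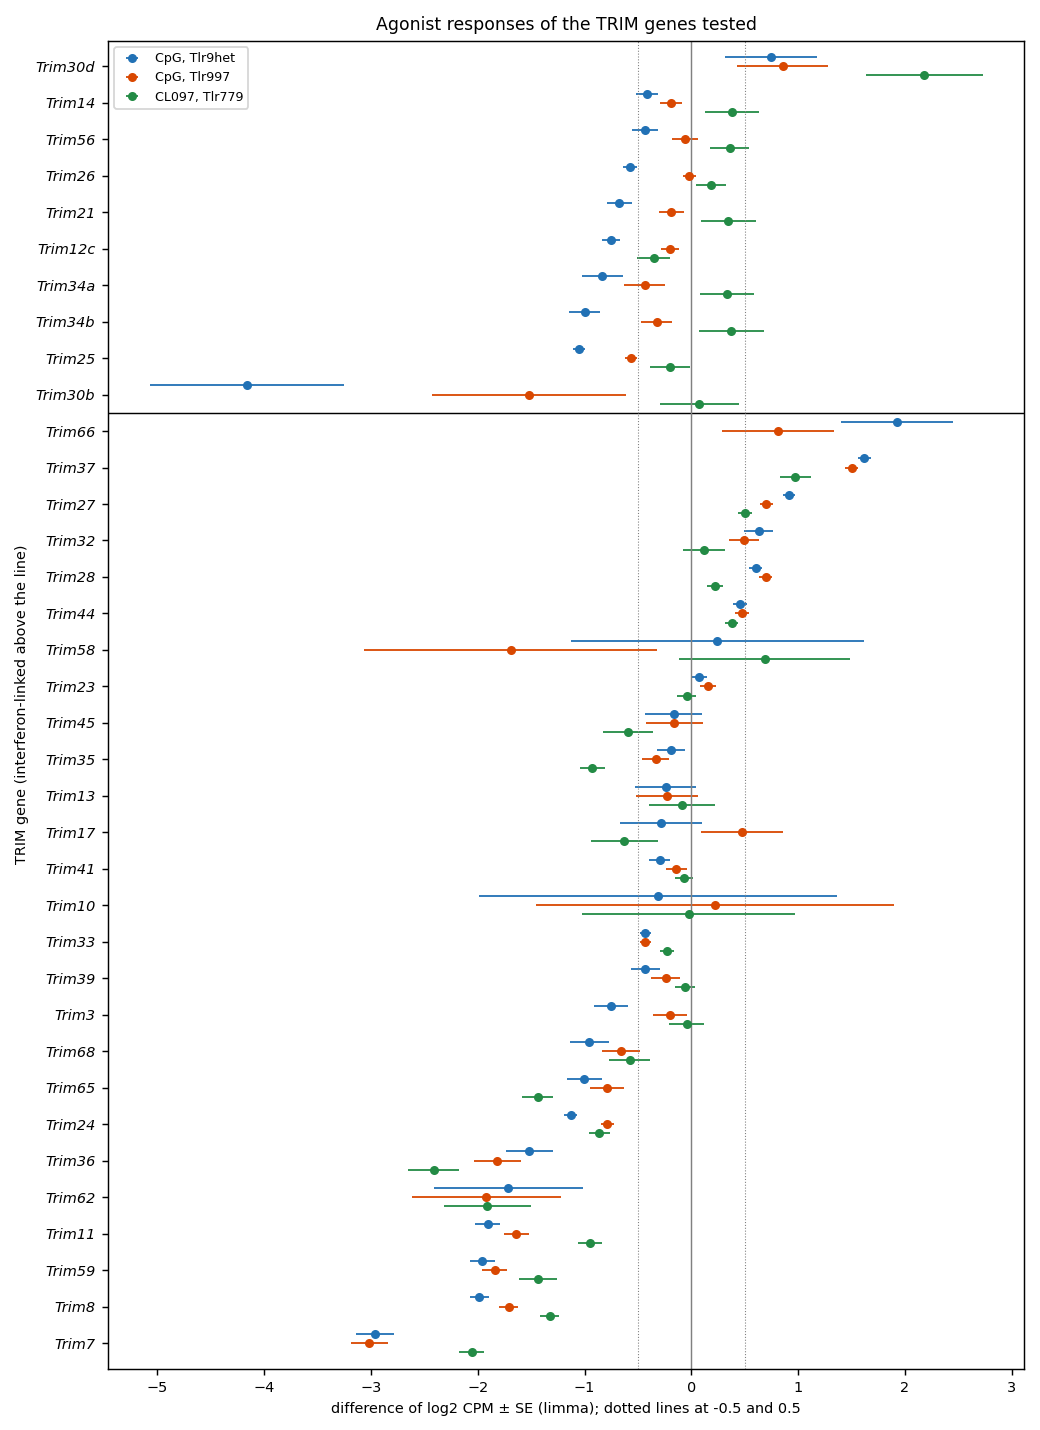
Agonist response of each tested TRIM gene (y axis) as a difference of log2 CPM with its SE (x axis), for CpG in Tlr9het (blue), CpG in Tlr997 (orange) and CL097 in Tlr779 (green); interferon-linked genes stand above the horizontal line and dotted lines mark 0.5 in either direction. Medians of the interferon-linked genes are -0.71, -0.20 and 0.34, while Trim7, Trim8, Trim59 and Trim11 lie far to the left in all 3 responses.

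The CpG calls of the genotypes overlapped: each of the 13 members called in Tlr997 cells (100%) was called the same way in Tlr9het cells, which is 59.1% of the 22 called there. Over all genes tested, calls shared in the same direction made up 88.5% of the Tlr997 calls and 85% of the Tlr9het calls. Called in all 3 agonist responses were Trim27 and Trim37, higher, and Trim7, Trim8, Trim11, Trim24, Trim36, Trim59, Trim65 and Trim68, lower, beside Trim62, whose stimulated libraries were all under 0. None of them is in the interferon-linked set, though Trim65 is a ligase of antiviral sensing. Of all genes tested, 57.9%, 55.6% and 46.3% were called in the 3 responses taken singly. The share of all genes called in all 3 was not counted, so this list is not read as a trait of the family. The 9 members called in Tlr9het and not in Tlr997 cells, 40.9% of the Tlr9het calls against 15% for all genes, were Trim32 and Trim66, higher, and Trim3 with 6 interferon-linked members, lower, Trim66 and Trim30b again with no library over 0 in their lower group; of these the difference itself was called for Trim12c and Trim26.

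Trim7, a ligase that binds the glycogen-priming enzyme glycogenin, fell most among well expressed members. It stood at 5.45, 5.39 and 5.59 in unstimulated Tlr9het cells and at 2.51, 2.51 and 2.53 with CpG, and at 4.87, 5.12 and 5.66 against 2.11, 2.44 and 2.06 in Tlr997 cells. In Tlr779 cells it went from 5.16, 5.11 and 4.98 to 3.08, 2.90 and 3.08 with CL097. No stimulated library came near an unstimulated one, and the values were -2.96 ± 0.17, -3.01 ± 0.17 and -2.06 ± 0.11, a 7.8-fold, 8.08-fold and 4.16-fold fall, with adjusted p-values of 3.7e-09, 3.8e-09 and 6.2e-06. The responses of the CpG genotypes differed by -0.05 ± 0.25 (adjusted p = 0.95).

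Trim8, a regulator of SOCS1 and of NF-kB signaling, went from 6.13, 6.18 and 6.30 to 4.15, 4.21 and 4.28 in Tlr9het cells. The corresponding values were 6.38, 6.30 and 6.08 against 4.60, 4.58 and 4.44 in Tlr997 cells, and 6.37, 6.21 and 6.28 against 4.98, 4.84 and 5.06 in Tlr779 cells. The falls were -1.99 ± 0.09, -1.71 ± 0.09 and -1.33 ± 0.09, and the stimulated Tlr997 libraries lay above the stimulated Tlr9het libraries without overlap. Trim59, a membrane-anchored ligase of the endoplasmic reticulum, fell by 1.96 ± 0.12, 1.84 ± 0.12 and 1.44 ± 0.18 in the same order, from 6.65, 6.74 and 6.44 to 4.72, 4.79 and 4.44 in Tlr9het cells. Trim11, a RING ligase with a B30.2 domain, fell by 1.91 ± 0.12, 1.64 ± 0.12 and 0.95 ± 0.11, from 6.03, 6.05 and 6.17 to 4.38, 4.06 and 4.09 in Tlr9het cells. For none of these genes did stimulated and unstimulated libraries overlap in any of the 3 genotypes.

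Trim36, a microtubule-binding member, was the only tested gene of the 7 Trim symbols listed with a cytoskeletal COS box. It read 2.84, 2.96 and 2.74 against 1.25, 1.17 and 1.56 in Tlr9het cells. In Tlr779 cells it read 2.87, 2.45 and 2.55 against 0.03, 0.23 and 0.37. Its falls were -1.52 ± 0.22 with CpG in Tlr9het, -1.82 ± 0.22 in Tlr997 and -2.42 ± 0.24 with CL097 in Tlr779. Trim65, a ligase of the RNA sensor MDA5, fell by 1.00 ± 0.16, 0.79 ± 0.16 and 1.44 ± 0.14; its exons overlap Trim47 on the same strand, and 3.88% of its 75-base stretches occur there. Trim35 was called with CL097 and not with CpG: it read 6.33, 6.39 and 6.45 before and 5.73, 5.32 and 5.34 after CL097 (-0.93 ± 0.12, adjusted p = 0.00027), and CpG gave -0.19 ± 0.13 in Tlr9het (adjusted p = 0.20) and -0.34 ± 0.13 in Tlr997 cells. Trim68 fell in all 3 responses, by 0.96 ± 0.18, 0.66 ± 0.18 and 0.58 ± 0.19, and 4 of 6 fits without 1 library lost its CL097 call. Trim62, a RING ligase, at 0.62, 1.60 and 1.32 against -0.98, -0.16 and -0.47 in Tlr9het cells, had a value of -1.72 ± 0.70. Its stimulated libraries were under 0 in all 3 genotypes, so it passed the filter through unstimulated libraries alone and its tests carry no weight.

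Few members rose. Trim37, a ligase of peroxisome import and centrosome number, stood at 5.41, 5.49 and 5.46 in unstimulated and at 6.99, 7.11 and 7.13 in stimulated Tlr9het cells. Tlr997 cells gave 5.42, 5.48 and 5.54 against 6.97, 6.94 and 7.04, and Tlr779 cells 5.62, 5.80 and 5.29 against 6.44, 6.73 and 6.47 with CL097. The rises were 1.62 ± 0.06, 1.50 ± 0.06 and 0.97 ± 0.14 (adjusted p = 5.3e-11, 1.3e-10 and 0.00053), with no overlap of libraries. Trim27, a ligase of endosomal sorting through the WASH complex, rose by 0.91 ± 0.06 with CpG in Tlr9het, from 6.45, 6.44 and 6.55 to 7.37, 7.40 and 7.40, by 0.70 ± 0.06 in Tlr997 and by 0.50 ± 0.07 with CL097, the last so close to the fold threshold that 4 of 6 fits without 1 library no longer called it.

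**Figure D4:**
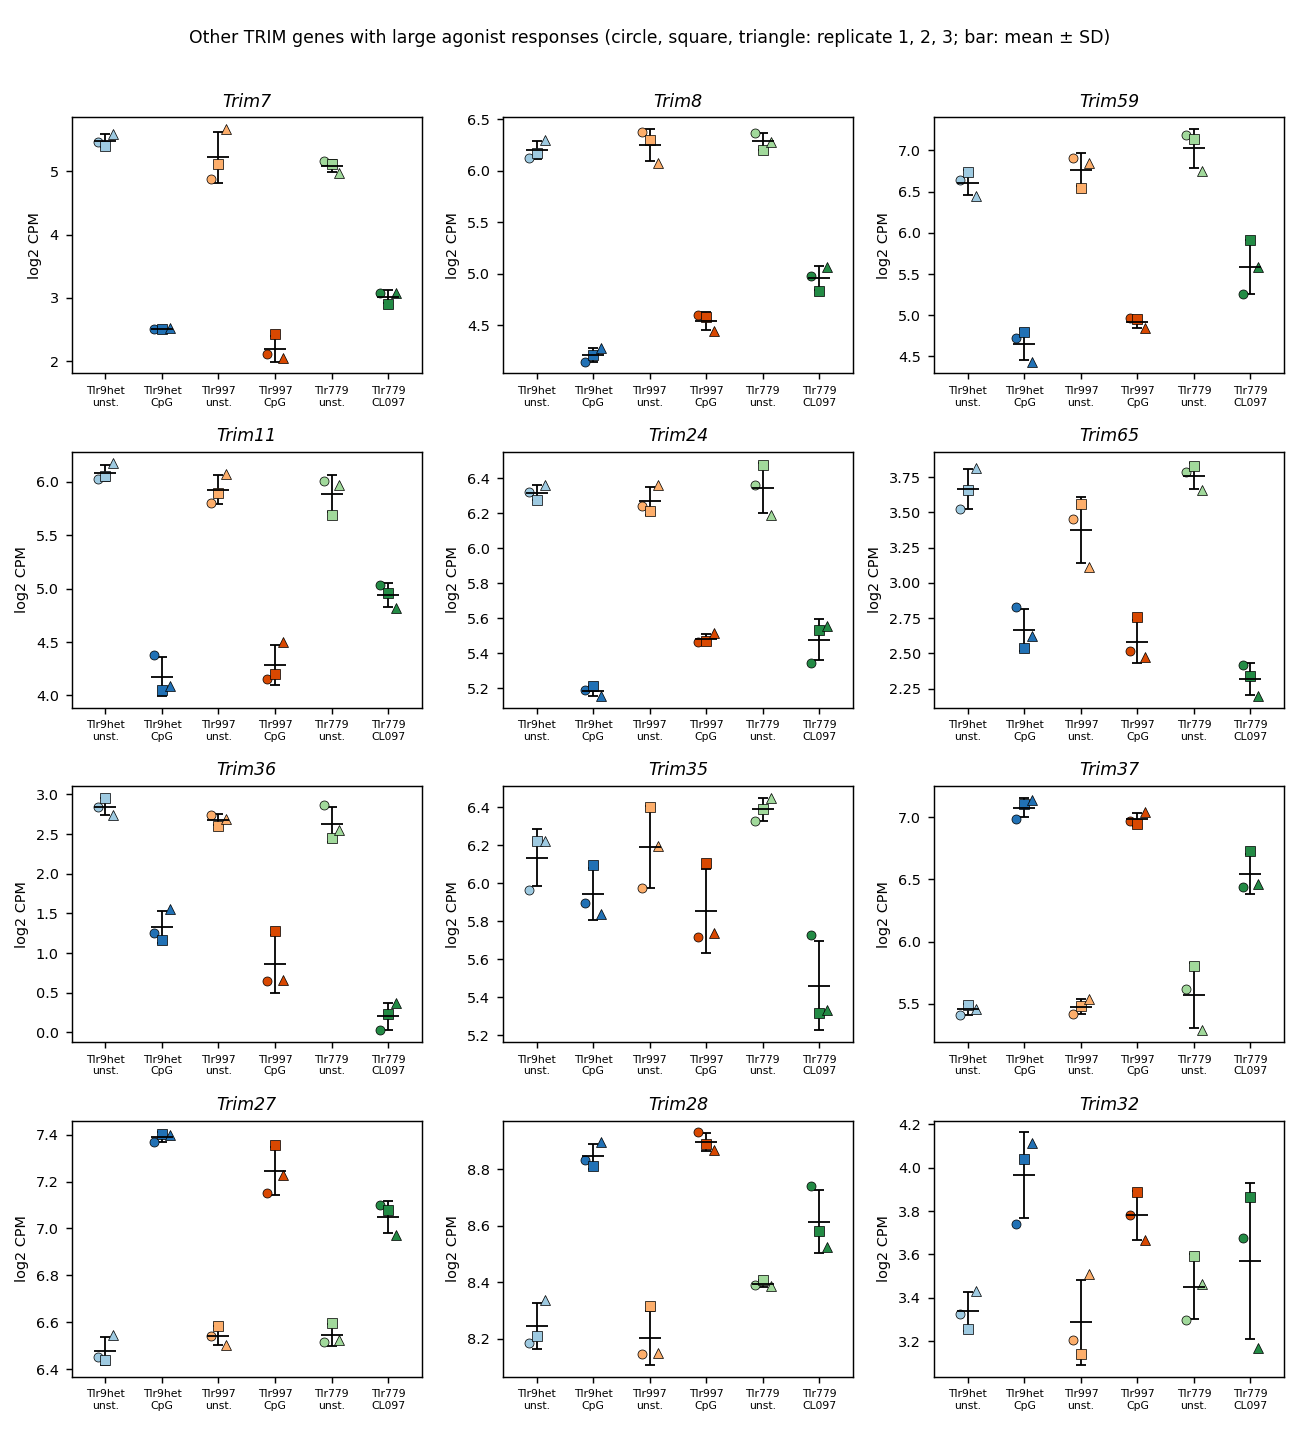
Log2 CPM (y axis, scaled per gene) of 12 other TRIM genes in the 6 groups (x axis), with a circle, square and triangle for replicates 1, 2 and 3 and a bar for the mean with its SD. Trim7, Trim8, Trim59 and Trim11 are lower and Trim37 and Trim27 higher in all stimulated than in all unstimulated libraries of the same genotype, and Trim35 is called lower with CL097 alone.

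By subfamily, the 4 TIF1 genes, chromatin readers with a bromodomain, split. Trim28 rose with CpG by 0.60 ± 0.06 in Tlr9het (8.19, 8.21 and 8.34 against 8.83, 8.81 and 8.90) and by 0.69 ± 0.06 in Tlr997 cells, and had a value of 0.22 ± 0.07 with CL097 (adjusted p = 0.027, under the fold threshold). Trim24, a coregulator of nuclear receptors, went the other way, by -1.13 ± 0.06 in Tlr9het, from 6.32, 6.28 and 6.36 to 5.19, 5.21 and 5.16, by -0.79 ± 0.06 in Tlr997 and by -0.86 ± 0.10 in Tlr779 cells. Trim33, which modifies SMAD4, had values of -0.43 ± 0.05 in each CpG response and -0.23 ± 0.07 with CL097, all under the fold threshold. Trim66, the weakest of the 4, went from -0.19, -1.41 and -1.02 to 1.13, 1.11 and 0.91 in Tlr9het cells, a value of 1.92 ± 0.52 in a gene with no unstimulated Tlr9het library over 0. Of the 6 TRIM28 partners 0 rose and 2 fell in Tlr9het cells (Atrx -0.78 ± 0.12), 3 rose and 1 fell in Tlr997 cells (Cbx3 -0.83 ± 0.08) and 1 rose with CL097 (Cbx5 0.57 ± 0.10). Over all genes 57.9%, 55.6% and 46.3% were called in these responses.

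Of the 4 genes with NHL repeats 2 were tested. Trim32 rose with CpG in Tlr9het cells by 0.63 ± 0.14 (adjusted p = 0.0012), from 3.33, 3.26 and 3.43 to 3.74, 4.04 and 4.11, and had 0.49 ± 0.14 in Tlr997 cells. Trim3 fell by 0.76 ± 0.16 in Tlr9het cells (adjusted p = 0.00072) and had -0.20 ± 0.16 in Tlr997 cells, and the responses differed by 0.55 ± 0.22 (adjusted p = 0.25). Of the 5 family genes under other symbols, Mid1, a microtubule-associated ligase, had the value farthest from 0 with CpG in Tlr9het cells, -1.74 ± 1.16 (adjusted p = 0.19). Pml, the interferon-induced organizer of nuclear bodies, was called lower with CpG in Tlr9het cells (-0.57 ± 0.09, adjusted p = 8e-05), and 0 of the 4 tested (2 in Tlr779 cells) were called in any other comparison. Pml read 8.89, 8.88 and 8.61 before and 8.24, 8.14 and 8.30 after CpG in Tlr9het cells. Stimulated Tlr997 libraries read 8.86, 8.74 and 8.55, all above the stimulated Tlr9het libraries. That difference was 0.49 ± 0.09 (limma, adjusted p = 0.0075), just under the fold threshold.

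The interferon pathway around these ligases was read from a list of 7 signaling genes. For this and the next 2 lists, the share of all genes called was 57.9% with CpG in Tlr9het and 55.6% in Tlr997. It was 46.3% with CL097 and 2.72% between genotypes with CpG. In Tlr9het cells CpG raised 1 of them and lowered 3, and in Tlr997 cells it raised 2 and lowered 2, with Isg15, the ubiquitin-like modifier that TRIM25 can attach, at 2.18 ± 0.35 and 2.09 ± 0.35. Between genotypes with CpG, 2 of the 7 were higher in Tlr997 and 0 lower, led by Usp18, the protease that removes ISG15, at 1.21 ± 0.25 (adjusted p = 0.012): it read 5.58, 5.50 and 5.74 in Tlr9het and 6.88, 7.06 and 6.50 in Tlr997 cells. With CL097 2 rose and 1 fell, Isg15 by 2.62 ± 0.33. Of 12 sensor and adaptor genes, Ddx58 (RIG-I, the TRIM25 substrate; 0.74 ± 0.13, adjusted p = 0.0046) and Tmem173 (STING) were higher in Tlr997 with CpG and 0 were lower. Tmem173 fell in all 3 responses, by 3.20 ± 0.10, 2.56 ± 0.10 and 2.33 ± 0.14, within counts of 3 higher and 6 lower in each CpG response and 3 and 3 with CL097. Of 11 ubiquitin-conjugating E2 enzymes, which hand ubiquitin to RING ligases, 6 rose and 1 fell with CpG in either genotype, led by Ube2v2 in Tlr9het (1.71 ± 0.17) and Ube2d1 in Tlr997 cells (-1.14 ± 0.11), and 3 rose and 1 fell with CL097, led by Ube2v2 (1.07 ± 0.14).

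Trim10 and Trim58, both known from maturing red cells, differed mainly between replicates. Trim10 read 4.75, 0.24 and -0.79 in unstimulated and 3.96, -0.12 and 1.03 in stimulated Tlr997 cells, 2.59, 0.49 and -2.00 against 2.84, 0.12 and -2.83 in Tlr9het cells, and 1.00, 4.68 and 3.15 against 1.25, 4.24 and 3.26 in Tlr779 cells. Trim58 read 1.96, -1.73 and -0.34 against 1.11, -3.25 and -3.05 in Tlr997 cells. The erythroid gene Alas2, the first enzyme of heme synthesis in red cells, read 8.69, 4.01 and 5.34 in unstimulated Tlr997 libraries. It was high in the same library, replicate 1, and in Tlr779 cells replicate 2 was the highest for Trim10, Trim58 and Alas2 alike. Summed over Alas2 and Hba-a1, the erythroid level ranged from 3.53 to 8.69 over the 18 libraries, while Hba-a1 was at -5.05 in all of them, and its part in the Trim10 and Trim58 values was not tested. Neither Trim10 nor Trim58 was called in any comparison, with adjusted p-values of 0.29 or more.

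**Figure D5:**
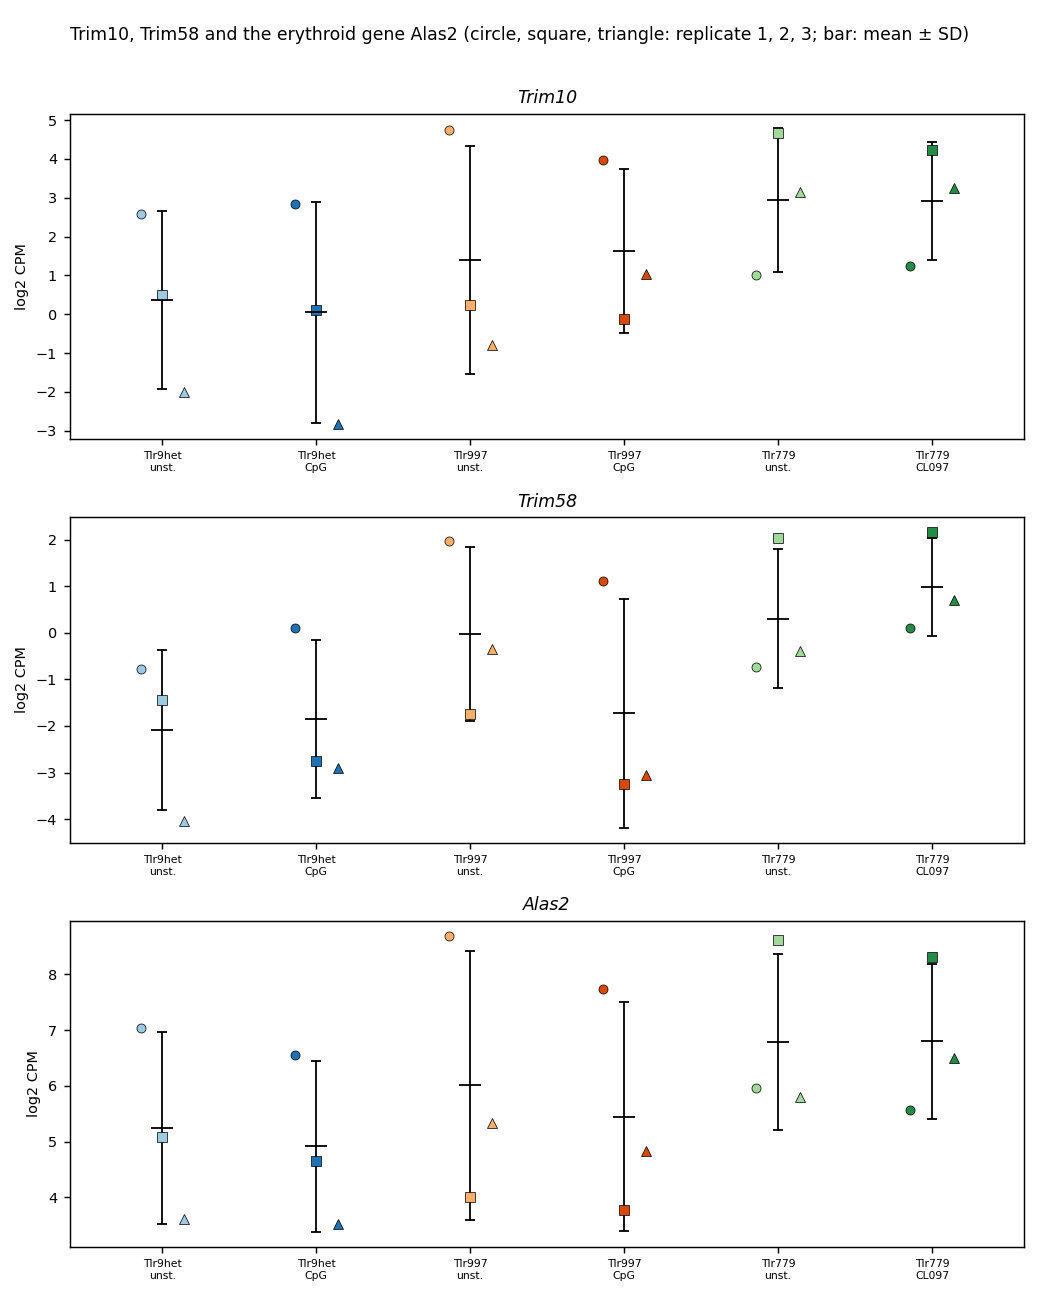
Log2 CPM (y axis, scaled per gene) of Trim10, Trim58 and the erythroid gene Alas2 in the 6 groups (x axis), with a circle, square and triangle for replicates 1, 2 and 3 and a bar for the mean with its SD. Replicate 1 is the highest library of the Tlr997 groups and replicate 2 that of the Tlr779 groups in all 3 genes, and the same holds for replicate 1 of the Tlr9het groups.

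The remaining tested members, Trim13, Trim17, Trim23, Trim39, Trim41, Trim44 and Trim45, were called in 0 of the 6 comparisons. Trim44, a member without a RING domain, came closest, at 0.45 ± 0.07, 0.48 ± 0.07 and 0.38 ± 0.06 in the 3 responses, with adjusted p-values of 2.9e-05, 1.9e-05 and 0.00075. Trim23, which carries an ARF GTPase domain, was the steadiest, between 5.09 and 5.39 in all 18 libraries.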

How the data were processed

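RNA was taken from bead-purified splenic B cells of 3 mice per genotype after 4 h of culture and sequenced from mRNA libraries (Illumina TruSeq). According to the study's methods and the submitters' processing notes, reads were checked with FastQC 0.11.7, trimmed with Trim Galore 0.6.5, aligned with STAR 2.6.1a to the mouse genome (mm10) and counted per gene with featureCounts of Subread 2.0.1. The authors then deposited log2 CPM (counts scaled to library size) after quantile normalization with limma and voom, 1 value per gene and library with 3 decimals. Read counts were not used here, so depth is unknown and no counting intervals are given. The counting's strand setting is not given in the sources used here. Of 6209 genes under -4 in all 18 libraries, 6008 held a single value per replicate number, so an offset per number appears to have been taken out before deposit, and p-values can be too small for it.

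Groups came from the sample names. The log2 values were fitted with limma 3.58.1 in R 4.3.3 (variance trend, empirical Bayes, Benjamini-Hochberg adjustment over all genes tested), with the 12 libraries of the Tlr7-/- arm in 1 model and the 6 Tlr779 libraries in another, and without a block. A count model had been planned for and was not possible on these values. Genes over 0 log2 CPM in at least 3 fitted libraries were tested. The pipeline was tested on simulated data. Replicate numbers mark the same mice within a genotype by the treatment protocol; deviations of same-numbered libraries correlated at 0.513, 0.287 and 0.509 in Tlr9het, 0.373, 0.0826 and 0.0248 in Tlr997 and 0.205, 0.421 and 0.285 in Tlr779 cells, and fits with the number as a block were run as alternatives. P-values measure only the spread between these samples.

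Members and gene lists were chosen with earlier results of these data known. The text names the tested interferon-linked members, members called between genotypes, the 5 called members with the highest and the 5 with the lowest log2 fold change in each response among those averaging over 2 log2 CPM, and the gene that differed most in each pathway list. Trim10, Trim13, Trim17, Trim23, Trim33, Trim35, Trim39, Trim41, Trim44, Trim45, Trim58, Trim62 and Trim68, the marker genes, and further values of Pml, Usp18, Ddx58 and Isg15 were chosen after their values were seen. Of the family symbols 1, and some genes of the pathway and marker lists, are not reported here. Levels per kb used the exon length of GENCODE vM21 (GRCm38), and shared stretches are 75-base windows of its transcripts. Figures were drawn with matplotlib 3.10.9. Alternatives were other filters, a pseudocount of 1 CPM, other fold thresholds, no variance trend, median centring, other sets of fitted libraries, replicate blocks and leaving out each library.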

Additional observations from a re-analysis of the deposited data

Results flagged for a closer look

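The response to CpG differed between Tlr997 and Tlr9het cells for 2 TRIM genes by a direct test of that difference (limma across all genes). For Trim12c the Tlr997 response minus the Tlr9het response was 0.552 on the log2 scale (SE 0.11, adjusted p = 0.029). For Trim26 it was 0.5543 (SE 0.09, adjusted p = 0.0074). Groups of 3 libraries were not tested for outlying samples.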

How the results depend on the processing

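With a log2 fold change over 1 instead of 0.5, the members called numbered 12 for CpG in Tlr9het, 7 in Tlr997, 7 for CL097 and 0 for the difference of CpG responses. Between genotypes with CpG, 5 were called without a fold threshold and 1 with only the groups compared in the fit. The difference of responses gave 1 without the filter on low values, 1 without the variance trend and 0 with all 18 libraries in 1 model. Leaving out 1 library gave 21 to 23 calls for CpG in Tlr9het, 12 to 15 in Tlr997, 11 to 15 for CL097, 1 to 4 for the difference of responses and 0 in both genotype comparisons. For the difference of responses the count was 4 without unstimulated Tlr9het replicate 3, and 1 without unstimulated Tlr997 replicate 2, stimulated Tlr997 replicate 1 or 3, unstimulated Tlr9het replicate 1 or 2, or stimulated Tlr9het replicate 1 or 2. The cause was not tested. Shares of all genes called under these settings and under the blocks below are not given here. The counts are therefore set only against the member counts of the main fits.

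With the replicate number as a block, 21, 13, 0, 0, 2 and 13 members were called in CpG in Tlr9het, CpG in Tlr997, the genotypes unstimulated, the genotypes with CpG, the difference of responses and CL097. Because an offset per number appears to have been taken out before deposit, this block may have little left to absorb. Similar counts under it are therefore a weak check. In the Tlr7-/- arm the number alone also puts mice of different genotypes together. With the block within genotype, which pairs the libraries of the same mouse, 22 were called for CpG in Tlr9het. Its counts for CpG in Tlr997 and for the difference of responses are not given here. Among the named genes, only the Tlr9het call of Trim62 was lost under the block (adjusted p = 0.054; 0.041 with the block within genotype).

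Over 99 results for named genes and 1460 values under alternatives, 1384 kept their direction and side of the threshold, 37 lost a call, 18 gained one and 21 changed sign, all 21 on leaving out 1 library and none in a called result. Ranges without 1 library that crossed 0 were -0.06 to 0.0118 for Trim26 and -0.149 to 0.008 for Trim56 with CpG in Tlr997. Between unstimulated genotypes they were -0.1547 to 0.0643 for Trim14, -0.0853 to 0.0292 for Trim25, -0.1387 to 0.2343 for Trim34a and -0.1543 to 0.1312 for Trim56. For Trim30d they were -0.3725 to 0.2065 between genotypes with CpG and -0.0978 to 0.4812 for the difference of responses, and for CL097 -0.3785 to 0.03 for Trim25 and -0.2093 to 0.3898 for Trim30b.

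The difference of responses for Trim12c missed the threshold without the filter (adjusted p = 0.12), without the variance trend (0.086) and with all 18 libraries (0.13), and that for Trim26 with all 18 libraries (0.074). Without the filter, the calls of Trim62 were lost with CpG in Tlr9het (0.14) and Tlr997 cells (0.097), as were those of Trim68 (0.088) and Trim30d (0.065) with CL097. Depth is unknown, and members over 0 log2 CPM in fewer than 3 fitted libraries were not tested.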
